A study of Drosophila melanogaster with 80 samples.

Results

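The DNA replication genes described here are 10 Drosophila melanogaster genes chosen by symbol for their roles in copying DNA: Mcm2, Mcm3, dpa, Mcm5, Mcm6, Mcm7, dup, PCNA, RnrL and RnrS. They were found by matching their FlyBase identifiers, and all 10 were present among the 17697 gene identifiers of the deposited table. All 10 also passed the filter on low counts in larvae, in males and in females.

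Copying a chromosome starts when the licensing factor Cdt1, encoded by dup, and the origin recognition complex load the ring-shaped MCM2-7 helicase onto DNA before S phase. The helicase then unwinds the template, the sliding clamp PCNA holds the polymerases on it, and ribonucleotide reductase, made of a large subunit (RnrL) and a small subunit (RnrS), supplies deoxyribonucleotides. In flies, these transcripts are known to be abundant where cells divide or re-replicate, such as larval tissues in endocycles, imaginal discs and the ovary, where nurse cells also load replication transcripts into the egg.

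The study compared whole animals kept under a fluctuating regime with animals kept at constant temperature. The fluctuating animals went through cycles with a mean of 19 °C and an amplitude of 8 °C, which puts the extremes at 27 °C and 11 °C; constant animals stayed at 19 °C. Larvae were treated for 7 days and adults for 13 days, and animals of both regimes were collected at the times labelled as the high or the low temperature point. No strain, genotype or animal age beyond the stage was given in the sources used here.

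The fluctuating groups were larvae at either point after 6 cycles, adult males at both points after 12 and after 6 cycles, and adult females at both points after 12 and after 6 cycles. The constant groups matched these one by one, and for them the point and the cycle number only mark the time of collection. Each of the 20 groups held 4 libraries stated to be biological replicates, 80 in all. Whether a library came from 1 animal or a pool was not given in the sources used here. High and low points also differ in the time of collection, so in fluctuating animals temperature and time cannot be told apart. The same 13 days of treatment are given for adults after 12 and after 6 cycles, and no age at collection is given. Cycle number therefore cannot be told apart from any difference in adult age or time of collection.

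Library totals were 94.0 to 126.2 M counts in larvae, 87.1 to 122.6 M in males and 92.9 to 130.7 M in females (M, 1e6 counts). Counts fell on multiples of 4 more often than an even spread gives (36.82% of the values from 1 to 24, against 25%), so a sequenced fragment may be worth about 4 counts and the depth about 0.25 of these totals. The stage and sex labels were checked against marker genes. Male accessory gland markers summed to 0.213 to 2.40 CPM in larvae, 825.4 to 2643 CPM in males and 0.251 to 3.32 CPM in females, and yolk protein genes to 1.74 to 14.5, 7.71 to 150.8 and 6617 to 27710 CPM in the same order. CPM is the count per 1e6 counts of the library. Replicate 2 of the constant males at the low point after 6 cycles stood apart. It held 4471 CPM of Yp1, a yolk protein gene of females, against 0.210 to 64.9 CPM in the other males, and it also held male accessory gland RNA (Acp36DE at 607 CPM, within the 357 to 1410 CPM of the other males). It was left out, which leaves 31 male libraries, 7 of them constant at the low point.

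The genes lie apart on the chromosomes of the BDGP6.54 annotation. Mcm2 (FBgn0014861) spans 3R from 8264970 to 8267924, Mcm5 (FBgn0017577) spans 3R from 10788524 to 10791150, and Mcm7 (FBgn0020633) spans 3L from 8891596 to 8894310, all on the plus strand. Mcm3 (FBgn0284442) runs from 5323855 to 5326738 and Mcm6 (FBgn0025815), a gene with 1 exon, from 6674387 to 6677176 on the plus strand of X. On the minus strand of 2R lie dpa (FBgn0015929, 7496702 to 7500145), RnrS (FBgn0011704, 11983145 to 11985393), dup (FBgn0000996, 15376619 to 15380988) and PCNA (FBgn0005655, 20261754 to 20262883). RnrL (FBgn0011703) spans 2L from 10325026 to 10327943 on the minus strand. An antisense RNA gene, asRNA:CR45871, covers 81.72% of the exon bases of Mcm7, and since no use of strand is stated its reads cannot be told apart from those of Mcm7. CG3309 shares 2.33% of the exon bases of Mcm3 and SRPK shares 5.04% of those of dup.

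All 10 genes were ordered the same way across stage and sex: highest in females, intermediate in larvae and lowest in males. For none of them did the libraries of any 2 of these classes overlap. The same held between males and females for 59.1% of all genes tested and, in constant animals after 6 cycles, between larvae and females for 70.1% and between larvae and males for 68.4%. The gap was widest between the sexes, where levels in males were lower than in females by 19.2-fold (dpa) to 71.3-fold (Mcm5). Larvae had 4.72-fold (Mcm3) to 12.4-fold (dup) lower levels than females and 2.50-fold (dup) to 9.89-fold (Mcm3) higher levels than males. In RNA from whole animals, fewer cells of a type and less RNA per cell cannot be told apart.

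The helicase subunits show this order. Mcm2 was measured at 21.0 to 27.3 CPM in larvae (median 23.9), at 3.29 to 5.41 CPM in males (median 4.28) and at 146 to 199 CPM in females (median 179). Mcm5 averaged 28.9 ± 2.28 CPM in larvae, 3.82 ± 0.528 CPM in males and 272 ± 20.8 CPM in females (SD, n = 16, 31 and 32). Mcm3, another subunit of the ring, averaged 24.4 ± 2.52 CPM in larvae, 2.47 ± 0.471 CPM in males and 115.2 ± 13.1 CPM in females. The lowest female library of each of these subunits thus lay above the highest larval one, and the lowest larval library above the highest male one. The subunits dpa (Mcm4), Mcm6 and Mcm7 averaged 31.3 ± 1.99, 33.0 ± 2.42 and 26.5 ± 2.08 CPM in larvae. In males dpa averaged 12.3 ± 1.48 CPM, Mcm6 7.82 ± 1.09 CPM and Mcm7 2.94 ± 0.433 CPM. In females they averaged 235.5 ± 23.6 CPM (dpa), 194 ± 19.0 CPM (Mcm6) and 144 ± 15.3 CPM (Mcm7).

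The licensing factor dup had the smallest gap between larvae and males. It averaged 19.5 ± 1.14 CPM in larvae, 7.83 ± 0.805 CPM in males and 242 ± 28.1 CPM in females. The clamp PCNA averaged 53.5 ± 5.04 CPM in larvae, 7.02 ± 1.09 CPM in males and 269 ± 16.97 CPM in females. For ribonucleotide reductase, RnrL averaged 37.4 ± 2.53, 5.43 ± 1.101 and 331 ± 24.3 CPM and RnrS 46.9 ± 3.68, 11.8 ± 2.69 and 273 ± 32.5 CPM in larvae, males and females. All 4 genes thus kept the order of the helicase subunits.

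**Figure D1:**
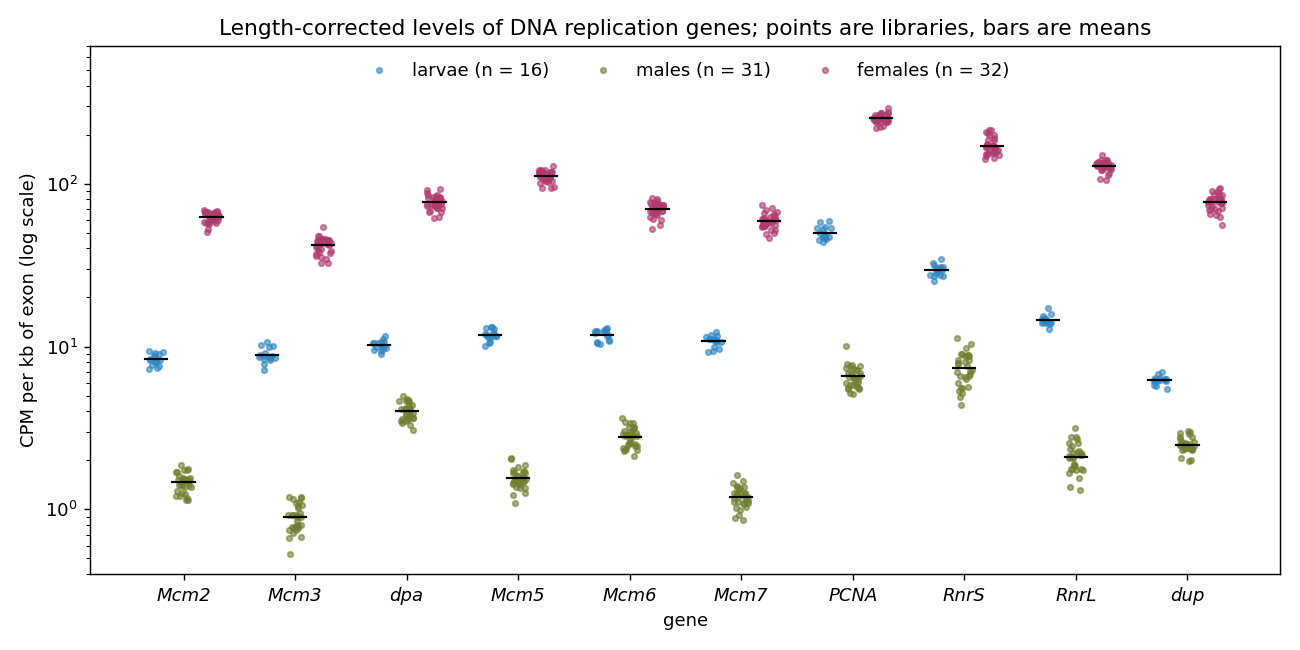
Levels of the 10 genes in CPM per kb of exon on a log axis; each point is a library, black bars are means, and larvae (n = 16), males (n = 31) and females (n = 32) stand side by side for each gene. For every gene the 3 clouds are separate, with females on top and males at the bottom.

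The test across all genes gave the same order. The test was the quasi-likelihood test of edgeR, and every adjusted p below comes from it, adjusted over all genes tested by the Benjamini-Hochberg method. All 10 genes were lower in males than in females (36.8% of the 16152 genes tested were lower). The log2 fold changes, on counts scaled by trimmed means (TMM), ran from -4.47 for dpa to -6.37 for Mcm5, with standard errors of 0.0333 to 0.0526. Their median was -5.55, against 0.911 over all genes tested. In constant animals, all 10 were lower in larvae than in females (39.6% of genes were), from -1.83 for Mcm3 to -3.16 for dup. All 10 were higher in larvae than in males (43.4% of genes were), from 1.81 for dup to 3.81 for Mcm3. The size of this last gap depends on the scaling: with library totals in place of TMM, the median of all genes moved to -0.62, against -0.060 with TMM, and the fold changes of dup and Mcm3 were 1.25 and 3.24 on the log2 scale.

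The other genes of the pathway were also lower in males, as were 36.8% of all genes tested. Every tested gene of the lists for origin licensing (7 genes, median log2 fold change -3.30), helicase activation (10, -2.44), polymerases and fork factors (22, -3.89), nucleotide supply (4, -5.13), G1/S regulators (8, -2.67) and mitotic regulators (10, -4.04) passed the test in that direction. The ovarian germline markers were lower in males in 9 of 10 cases, and all 12 follicle cell and eggshell markers were. Their summed levels were 1028 to 1452 CPM in males and 3101 to 4021 CPM in females for the germline list, and 5.03 to 77.9 CPM in males and 961 to 16440 CPM in females for the eggshell list. The germline list is thus not particular to the ovary. The part of ovarian cells in the difference between the sexes was not tested.

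Across the 20 group means of log2 CPM, Mcm2, Mcm5 and Mcm6 followed the mean of the 10 genes most closely (Pearson's r of 0.999 or more), and dup least (r = 0.984, rank 452 of 16386 genes). Each of the 10 genes is itself part of that mean, which raises its r and rank. The 5 other genes most like that mean were PolA1 (polymerase alpha catalytic subunit), His2Av (a histone H2A variant), RfC4 and RfC38 (subunits of the clamp loader) and dah. Their r was 0.998 to 0.999. The 20 means fall into 3 classes of stage and sex, so r mostly describes those 3 levels, and it carries no test.

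Relative to each other, the helicase subunits were closest to equal in larvae and furthest apart in males. Per kb of exon, larval means ran from 8.33 CPM per kb for Mcm2 to 11.8 for Mcm6, a ratio of 1.42. In males dpa was highest at 4.00 CPM per kb and Mcm3 lowest at 0.898, a ratio of 4.45. In females Mcm5 was highest at 111 CPM per kb and Mcm3 lowest at 41.9, a ratio of 2.65. The ends of the order recurred from library to library: dpa was highest in 28 of 31 male libraries and Mcm3 lowest in 29, while Mcm5 was highest and Mcm3 lowest in all 32 female libraries. Within single libraries the ratio of the highest to the lowest subunit was 1.37 to 1.70 in larvae, 2.91 to 8.94 in males and 1.97 to 3.27 in females. These ranges do not overlap between larvae and either adult sex. Differences in how evenly reads cover each gene can move such ratios between genes but were not measured here.

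The large and small subunits of ribonucleotide reductase were not at equal levels either. The ratio of RnrL to RnrS per kb had a median of 0.5001 in larvae (0.432 to 0.550), 0.301 in males (0.177 to 0.475) and 0.772 in females (0.593 to 0.997). The small subunit was thus the higher one per kb in every library used. PCNA was the highest of the 10 genes per kb in larvae (49.97 CPM per kb) and in females (252), and RnrS in males (7.38, with PCNA at 6.56). The licensing factor dup was lowest of the 10 in larvae (6.22 CPM per kb), with Mcm2 next above it.

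In adult females, 2 of the 10 genes were higher under the fluctuating regime at the high point, Mcm3 and RnrS (15.4% of the 13471 genes tested were higher, and 30.6% changed in either direction). RnrS was measured at 295 to 339 CPM in fluctuating females (median 321), against 227 to 279 CPM in constant females (median 262; n = 8 each). The ranges did not overlap, as for 3.76% of all genes tested. Its log2 fold change was 0.30 (SE 0.0449, adjusted p = 1.03e-05). Mcm3 was measured at 116 to 147.8 CPM in fluctuating females (median 125), against 89.4 to 118 CPM in constant females (median 98.0). Most fluctuating libraries lay above the constant ones and the ranges overlapped at the edge. Its log2 fold change was 0.33 (SE 0.0444, adjusted p = 3.03e-06). Both calls held when any one of the 32 female libraries was left out. Without replicate 3 of the constant 6-cycle libraries, 4 members were called.

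No other helicase subunit passed the test at the high point. There Mcm2 averaged 179 ± 9.35 CPM in fluctuating females and 171 ± 17.2 CPM in constant females, and Mcm5 averaged 265 ± 15.8 and 264 ± 21.8 CPM in the same order. The other 8 genes had log2 fold changes of -0.003 (Mcm5) to 0.07, none past the threshold. These values average both cycle numbers, between which the sign differed for some genes. After 6 cycles dpa averaged 229 CPM in fluctuating and 202 CPM in constant females, and dup 234 and 201 CPM. After 12 cycles dpa averaged 231 and 249 CPM, and dup 225 and 249 CPM. PCNA kept its sign, with 275 and 252 CPM after 6 cycles and 270 and 263 CPM after 12 cycles. RnrL, the partner of RnrS, averaged 331 ± 13.9 CPM in fluctuating females and 314 ± 30.3 CPM in constant females (log2 fold change 0.07, SE 0.0396, adjusted p = 0.194).

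None of the 10 genes passed the test between the regimes at the low point (22.9% of all genes changed). EdgeR's test and DESeq2 both called 0 members, and 0 had an unadjusted p under 0.05. RnrS averaged 266 ± 22.8 CPM in fluctuating females and 252 ± 14.8 CPM in constant females there, and Mcm3 averaged 116 ± 9.61 and 116 ± 7.30 CPM. These averages over the cycle numbers can hide opposite signs. After 6 cycles Mcm3 averaged 122 CPM in fluctuating and 113 CPM in constant females, and dpa 254 and 224 CPM. After 12 cycles Mcm3 averaged 110 and 119 CPM, and dpa 228 and 266 CPM. RnrS kept its sign, with 265 and 255 CPM after 6 cycles and 267 and 249 CPM after 12 cycles. The regime effect at the high point minus that at the low point was 0.35 for Mcm3 (SE 0.0628, adjusted p = 2.22e-04) and 0.24 for RnrS (SE 0.0635, adjusted p = 0.00868), the only 2 members past the threshold (20% of genes passed, and 9.78% with a positive difference). Within the fluctuating regime itself, RnrS was higher at the high than at the low point (log2 fold change 0.28, adjusted p = 2.23e-05), as was Mcm3 (0.16, adjusted p = 0.00701), where 13.4% of genes were higher and 25.5% changed. For Mcm3 this difference was present after 12 cycles only, with means of 133.3 CPM at the high and 109.6 CPM at the low point. After 6 cycles its means were 121.8 and 122.4 CPM. RnrS averaged 308 and 267 CPM after 12 cycles and 327 and 265 CPM after 6 cycles. These comparisons share the fluctuating libraries of the high point.

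Against constant females at the high point, the higher levels of both genes were present after either number of cycles. After 12 cycles RnrS was measured at 304, 295, 297 and 338 CPM in fluctuating females at the high point, against 267, 279, 227 and 273 CPM in constant females. After 6 cycles it was at 329, 319, 324 and 339 CPM in fluctuating females, against 271, 235, 257 and 237 CPM in constant females. Every fluctuating library was above every constant one at both times; the groups did not overlap for 14.4% of all genes after 12 cycles and for 32.2% after 6 cycles. The log2 fold changes were 0.26 after 12 cycles (adjusted p = 0.00843, 6.42% of genes higher) and 0.35 after 6 cycles (adjusted p = 1.56e-04, 15.1% of genes higher). For Mcm3 they were 0.31 after 12 cycles (adjusted p = 0.00175) and 0.35 after 6 cycles (adjusted p = 1.34e-04). The 12-cycle calls of both genes were lost when only the 8 libraries compared were fitted. After 6 cycles dup was also called (0.18, adjusted p = 0.0491), in a call lost in 25 of the 32 fits without a library. Without replicate 3 of the constant libraries 8 members were called there. In edgeR's test at the high point, 7 of the 10 genes had an unadjusted p under 0.05 after 6 cycles, and 2 did after 12 cycles. At the low point none was called after 6 cycles (26.4% of genes changed; DESeq2 also called 0, and 2 had an unadjusted p under 0.05). After 12 cycles dpa (-0.20, adjusted p = 0.0308) and Mcm6 (-0.19, adjusted p = 0.0247) were lower there (5.92% of genes were), in calls lost in 8 and 3 of those fits, both of them without replicate 6 or 8 of the constant or replicate 6 of the fluctuating libraries. These comparisons at single times were added after the values had been seen.

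Of the other replication lists in females at the high point, 7 of 22 polymerase and fork genes were higher under the fluctuating regime and none lower. Of all genes tested, 15.4% were higher in this comparison and 30.6% changed. The 3 largest changes were in PolE2, a subunit of the leading-strand polymerase epsilon (log2 fold change 0.46, adjusted p = 3.83e-07), Prim1, a primase subunit (0.27), and asf1, a histone chaperone (0.21). Among 10 helicase activation genes 3 were higher, led by Sld5, a GINS subunit (0.51, adjusted p = 2.76e-05), then Psf1 (0.21) and mus101 (0.17). E2f2 (0.21) and E2f1 (0.12) were higher and dap lower (-0.19) among 8 G1/S regulators, and aurB was the 1 of 10 mitotic regulators called (0.17). None of 7 licensing genes passed. The median log2 fold change was 0.057 over the 10 members and 0.00 over all genes tested.

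Markers of follicle cells and the eggshell were also called in this comparison, where 15.4% of all genes were higher and 30.6% changed. They were higher in fluctuating females at the high point for 7 of 12 genes, with median sums of 11790 CPM after 12 cycles and 4699 CPM after 6 cycles, against 4109 and 2853 CPM in constant females. For ovarian germline markers 4 of 10 were higher and 1 lower, and for larval fat body markers 2 of 6 were higher and 4 lower. At the low point after 12 cycles the median eggshell sum was 8255 CPM in fluctuating females, against 4226 CPM in constant females. The ranges there, 3323 to 13150 CPM and 961 to 7379 CPM, overlapped, as did those at the high point after either number of cycles. The part of these markers in the levels of RnrS and Mcm3 was not tested.

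**Figure D2:**
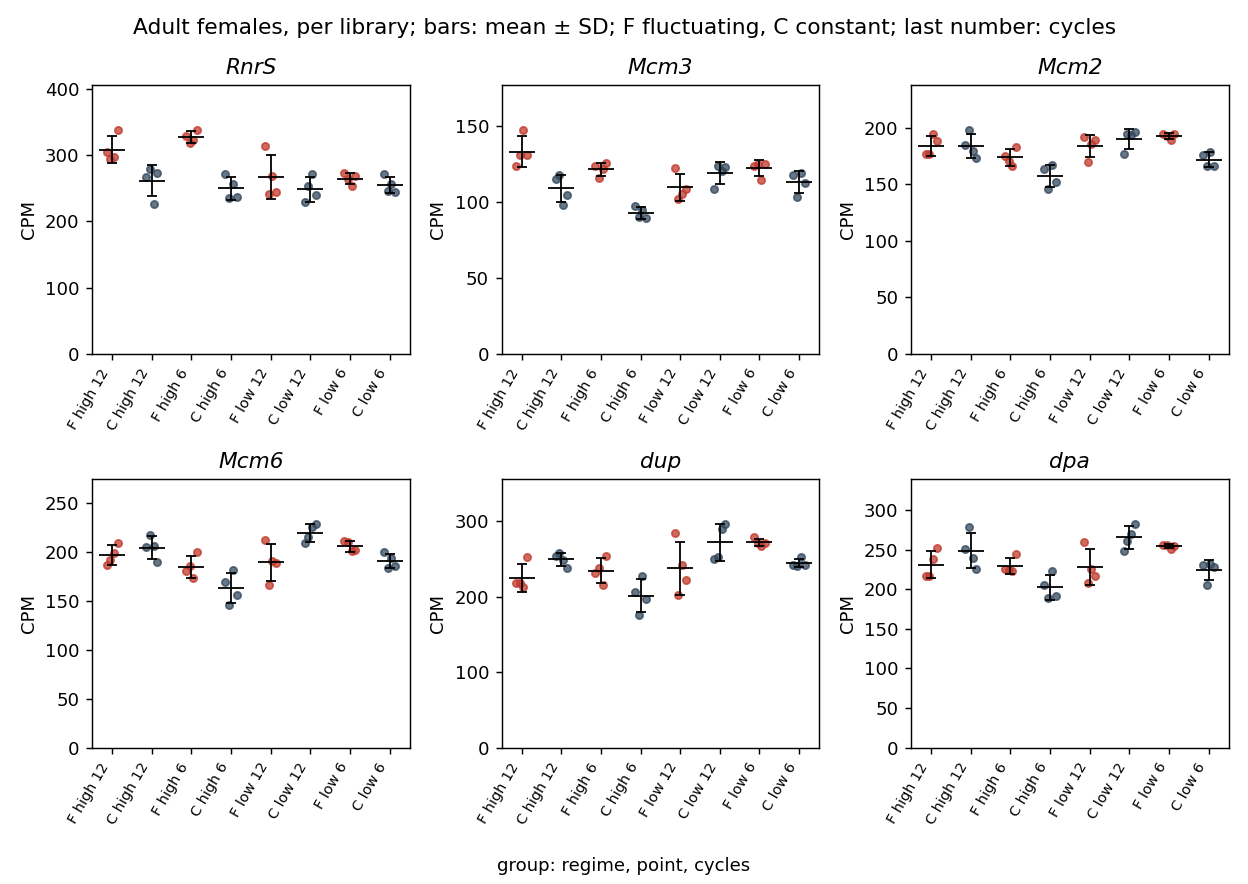
CPM of 6 of the genes in each adult female library, by regime (F fluctuating, C constant), point and cycles; points are libraries, bars are the mean and SD of 4. RnrS has its highest means in fluctuating females at the high point (295 to 339 CPM over 8 libraries), and Mcm3, Mcm2, Mcm6, dup and dpa all have their lowest mean in constant females at the high point after 6 cycles.

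In constant females, where the temperature was the same at every collection, 7 of the 10 genes were higher after 12 than after 6 cycles (23.5% of all genes were higher, 46.4% changed). The steepest were dpa and Mcm6. For dpa the values were 226 to 283 CPM after 12 cycles (median 256), against 189 to 232 CPM after 6 cycles (median 214; n = 8 each). Mcm6 was at 189.5 to 228.7 CPM after 12 cycles (median 212), against 146 to 199.98 CPM after 6 cycles (median 183). The upper part of the 12-cycle range lay above every 6-cycle library for both genes, with an overlap below it. The log2 fold changes were 0.24 for dpa (SE 0.0436, adjusted p = 4.08e-05) and 0.23 for Mcm6 (SE 0.0396, adjusted p = 1.98e-05).

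The other 5 that rose were dup (0.20, adjusted p = 0.00125), Mcm7 (0.20, adjusted p = 0.00494), Mcm2 (0.16, adjusted p = 2.52e-04), RnrL (0.12, adjusted p = 0.0128) and Mcm3 (0.12, adjusted p = 0.0249). The calls of RnrL and Mcm3 are less firm. RnrL was not called when replicate 6 of the high point after 12 cycles, replicate 8 of the low point after 12 cycles or replicate 2 of the low point after 6 cycles was left out (adjusted p = 0.0541 to 0.0692), and Mcm3 was not called in 5 of the 32 such fits. Mcm5, PCNA and RnrS had log2 fold changes of 0.08, 0.01 and -0.01 and did not pass.

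Under the fluctuating regime the same comparison called none of the 10 (8.2% of genes changed; DESeq2 also called 0, and 0 had an unadjusted p under 0.05). There dpa averaged 229.5 ± 18.6 CPM after 12 cycles and 242 ± 15.1 CPM after 6 cycles. The difference of the cycle effects was tested directly, as a comparison added after the values had been seen. The effect under the fluctuating regime minus that under the constant regime was -0.30 for dup (SE 0.0704, adjusted p = 0.00205), -0.28 for dpa (SE 0.0616, adjusted p = 9.77e-04), -0.26 for Mcm7 (SE 0.0807, adjusted p = 0.0162) and -0.21 for Mcm6 (SE 0.0560, adjusted p = 0.00459). The other 6 genes did not pass (15.8% of genes were lower in this difference). With library totals in place of TMM, 7 were called, Mcm2 (-0.18), Mcm3 (-0.16) and Mcm5 (-0.19) in addition. The calls over all genes also shifted toward lower in that setting, with 1446 higher and 2781 lower, against 2067 and 2129 with TMM. The median over all genes was -0.04, against 0.02. With counts divided by 4, Mcm2 was called as well (-0.12, adjusted p = 0.0468).

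The 6-cycle libraries of constant females at the high point had the lowest mean of the 8 female groups for 9 of the 10 genes. For dup they were at 206, 176, 227 and 197 CPM, against 242, 240, 252 and 241 CPM in constant females at the low point of the same cycle. For Mcm3 they were at 97.5, 90.0, 94.9 and 89.4 CPM, against 118, 104, 119 and 113 CPM. All 4 high-point libraries were below all 4 low-point ones for both genes, and the groups did not overlap for 18.4% of all genes tested. The exception was RnrS, whose mean there was 250.1 CPM, against 248.5 CPM in constant females at the low point after 12 cycles.

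Over both cycle numbers, 4 genes were lower at the high than at the low point in constant females: Mcm3 (-0.19, adjusted p = 0.00335), dup (-0.18, adjusted p = 0.00965), Mcm6 (-0.14, adjusted p = 0.00979) and RnrL (-0.11, adjusted p = 0.0438), where 10.3% of genes were lower and 21.1% changed. RnrL was not called in 10 of the 32 fits that leave out a library. After 6 cycles alone, Mcm3 (-0.25, adjusted p = 0.00793), dup (-0.24, adjusted p = 0.0205) and Mcm6 (-0.19, adjusted p = 0.0224) were called, where 7.39% of genes were lower; dup lost the call in 2 and Mcm6 in 4 of the 32 fits, and 1 gene was left without replicate 2 of the high point or replicate 3 of the low point. After 12 cycles alone none was called (4.48% of genes changed; DESeq2 also called 0, and 0 had an unadjusted p under 0.05). The comparison of 12 with 6 cycles called 7 genes at the high point alone and 3, dpa (0.23), Mcm6 (0.19) and Mcm2 (0.14), at the low point alone, where 15.2% and 18.0% of genes were higher. At the high point RnrL lost its call in 22 of the 32 fits without a library, Mcm7 in 3 and Mcm3 in 2, and 4 genes were left without replicate 5 of the 12-cycle libraries. At the low point Mcm2 lost it in 19 and Mcm6 in 3, and 1 gene was left without replicate 8 of the 12-cycle libraries or replicate 2 or 4 of the 6-cycle libraries. The comparisons at 1 cycle number or 1 point alone were added after the values had been seen. The comparisons of regime at the high point, of points under the constant regime and of cycles under the constant regime all use the same 4 libraries, so their results are not independent.

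Transcripts of the glue genes of the larval salivary gland moved with those 4 libraries. The 6 genes of that list summed to 6.46 to 13.9 CPM there and to at most 0.524 CPM in every other female library, against 13350 to 25360 CPM in larvae. The median sum of the 10 ovarian germline markers was also lowest there, at 3194 CPM, against 3405 CPM at the low point of the same cycle and 3759 CPM at the high point after 12 cycles. From 12 against 6 cycles in constant females, 6 of these 10 markers were higher and none lower, where 23.5% of all genes were higher and 46.4% changed. All 5 genes listed as imaginal disc markers were lower. That list summed to 44.7 to 79.9 CPM in adult females, against 200 to 303 CPM in larvae. What part these play in the levels of the replication genes was not tested.

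Other genes of the pathway were also higher in that comparison of 12 with 6 cycles, where 23.5% of all genes were higher and 46.4% changed. Of 22 polymerase and fork genes 14 were higher and none lower, with Prim1 (0.35), RpA-70 (0.32), which binds single-stranded DNA, and PolD1 (0.31) the largest. Among 7 licensing genes 4 were higher, led by Orc5 (0.29), Cdc6 (0.23) and Orc6 (0.16). Helicase activation genes were higher in 5 of 10 cases, with Psf1 (0.31), Mcm10 (0.31) and chif (0.28) first, and lower in 1. Among the rest, 3 of 4 nucleotide supply genes, 5 of 8 G1/S regulators and 8 of 10 mitotic regulators were higher, such as dUTPase (0.22), E2f2 (0.38) and aurB (0.38). The median over the 10 members was 0.14, against 0.013 over all genes tested.

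In adult males the same genes were at low levels and moved in opposite directions. Within the fluctuating regime, RnrS, Mcm3 and Mcm6 were higher and dpa and RnrL lower at the high than at the low point, where 34.3% of the 15945 genes tested changed (18.5% higher and 15.8% lower). RnrS was at 10.1 to 15.6 CPM at the high point (median 14.1), against 7.00 to 11.2 CPM at the low point (median 8.63; n = 8 each), with only replicate 4 of the high point after 6 cycles and replicate 5 of the low point after 12 cycles in the overlap. Mcm3 was at 2.46 to 3.27 CPM at the high point (median 3.13), against 1.47 to 2.18 CPM at the low point (median 2.002), with no overlap, as for 12.7% of all genes tested. For dpa the high point gave 9.41 to 11.4 CPM (median 10.7), against 12.6 to 14.6 CPM at the low point (median 13.8), again with no overlap and in the opposite direction. RnrL was at 3.37 to 5.48 CPM at the high point (median 4.51), against 4.56 to 8.16 CPM at the low point (median 5.49), and these ranges overlapped.

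The log2 fold changes between the points were 0.60 for RnrS (SE 0.0783, adjusted p = 5.29e-07), 0.58 for Mcm3 (SE 0.0874, adjusted p = 5.12e-06), -0.40 for dpa (SE 0.0626, adjusted p = 8.8e-06) and -0.43 for RnrL (SE 0.101, adjusted p = 0.00121). Mcm6 was higher by 0.24 (SE 0.0861, adjusted p = 0.0331), a call that was lost in 12 of the 31 fits without a library. So dpa and Mcm3, subunits of one ring, moved apart, and so did both subunits of ribonucleotide reductase. In constant males the points differed for RnrS alone (0.28, SE 0.0813, adjusted p = 0.0316, with 3.31% of genes higher and 7.46% changed), and that call was lost in 8 of the 31 fits.

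Against constant males, fluctuating males had lower dpa and RnrL at the high point (19.7% of genes were lower, 37.9% changed). At that point dpa averaged 10.6 ± 0.643 CPM in fluctuating males and 12.6 ± 0.890 CPM in constant males (n = 8 each). The ranges, 9.41 to 11.4 CPM and 11.7 to 14.2 CPM, did not overlap, as for 6.65% of all genes, and the log2 fold change was -0.26 (SE 0.0626, adjusted p = 0.00147). RnrL averaged 4.41 ± 0.680 CPM in fluctuating males and 5.99 ± 1.02 CPM in constant males (log2 fold change -0.46, SE 0.101, adjusted p = 7.43e-04), with overlapping ranges. This comparison shares its fluctuating libraries with that between the points. The other 8 genes did not pass, and RnrS had a log2 fold change of -0.03 (adjusted p = 0.785).

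RnrS and dup were lower in fluctuating males at the low point (15% of genes were lower, 12.3% higher, 27.3% in all). RnrS averaged 8.66 ± 1.23 CPM in fluctuating males (n = 8) and 11.2 ± 0.938 CPM in constant males (n = 7), with 1 fluctuating library, at 11.2 CPM, inside the constant range. Its log2 fold change was -0.35 (SE 0.0811, adjusted p = 0.00187). The licensing factor dup averaged 7.41 ± 0.791 CPM in fluctuating males and 8.70 ± 0.738 CPM in constant males (log2 fold change -0.22, SE 0.0652, adjusted p = 0.0130). In the opposite direction, dpa was higher by 0.17 (SE 0.0651, adjusted p = 0.0476), a call lost in 16 of the 31 fits without a library. The regime effect at the high point minus that at the low point passed for RnrL (-0.55, SE 0.146, adjusted p = 0.00563), dpa (-0.44, SE 0.0903, adjusted p = 5.8e-04), Mcm3 (0.40, SE 0.126, adjusted p = 0.0186) and RnrS (0.32, SE 0.112, adjusted p = 0.0397), where 23.5% of genes passed, 12.7% with a positive and 10.8% with a negative difference. RnrS lost this call in 18 of the 31 fits.

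**Figure D3:**
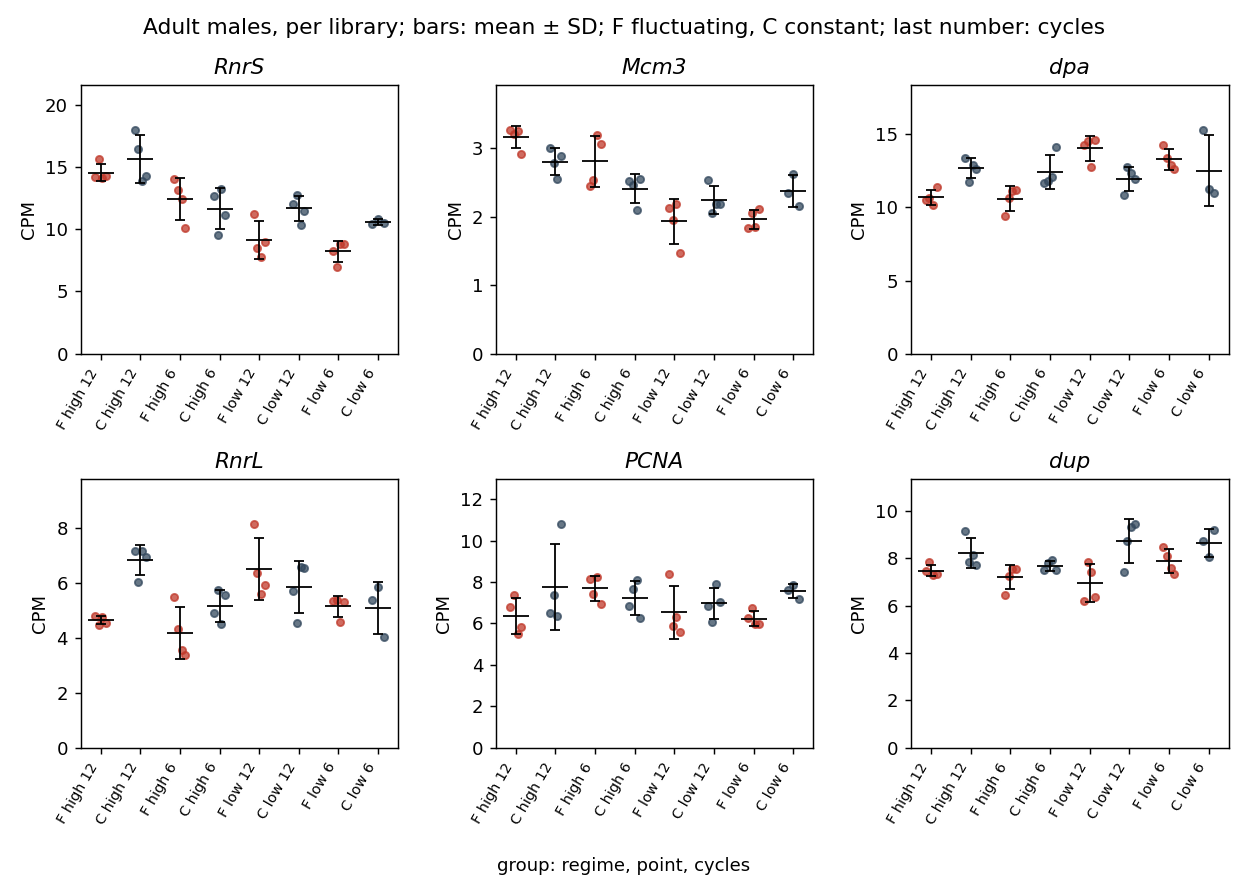
CPM of 6 of the genes in each adult male library, by regime (F fluctuating, C constant), point and cycles; points are libraries, bars are the mean and SD of the libraries used, 3 for constant males at the low point after 6 cycles and 4 elsewhere. In fluctuating males RnrS and Mcm3 are higher and dpa lower at the high than at the low point, with no overlap for Mcm3 and dpa.

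Males after 12 cycles had higher levels of both ribonucleotide reductase subunits than males after 6 cycles, in either regime. RnrS averaged 11.8 ± 3.0995 CPM after 12 cycles and 10.3 ± 2.56 CPM after 6 cycles in fluctuating males (log2 fold change 0.25, adjusted p = 0.0139, with 16.9% of genes higher and 34.1% changed). In constant males it averaged 13.7 ± 2.56 CPM after 12 cycles and 11.2 ± 1.32 CPM after 6 cycles (0.31, adjusted p = 0.00446, with 17.7% of genes higher and 34.1% changed). The point adds to these SDs, since each mean takes in the high and the low point. RnrL rose by 0.31 in fluctuating males (adjusted p = 0.0193) and by 0.33 in constant males (adjusted p = 0.0176). Each of those calls rests on 1 library: without replicate 5 of the fluctuating low point after 12 cycles the first had an adjusted p of 0.0525, and without replicate 4 of the constant low point after 6 cycles the second had one of 0.0731. With library totals in place of TMM, both fluctuating calls were lost (adjusted p = 0.0824 for RnrS and 0.0702 for RnrL). Mcm6 was also called in constant males (0.23, adjusted p = 0.0489) and lost that call in 14 of the 31 fits.

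Markers of male glands, testis and larval fat body were also called between the cycle numbers, where 34.1% of all genes changed in either regime. Accessory gland markers were lower after 12 cycles for 7 of 9 genes in fluctuating and 8 of 9 in constant males. Their median sums at the high point were 1261 CPM after 12 cycles and 2090 CPM after 6 cycles in fluctuating males, and 974.7 and 1637 CPM in constant males. Testis markers were lower for 7 of 16 genes in fluctuating and 6 of 16 in constant males, with high-point sums of 2182 and 2530 CPM in fluctuating and 2197 and 2613 CPM in constant males after 12 and 6 cycles. Larval fat body markers were lower for 2 and higher for 1 of 6 genes in fluctuating males (846.3 and 2025 CPM at the high point after 12 and 6 cycles) and lower for 5 of 6 in constant males (113.6 and 635.3 CPM). Their part in the levels of RnrS and RnrL was not tested.

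Other replication genes of males were also called in either direction between the points of the fluctuating regime. Of all genes tested, 34.3% changed there, 18.5% higher and 15.8% lower. Of 22 polymerase and fork genes 7 were higher and 4 lower at the high point, with hd (0.72), PolD1 (-0.48), the catalytic subunit of polymerase delta, and CG8142 (0.34), a clamp loader subunit, changing most. The deoxynucleoside kinase dnk was higher (0.18). Sld5 (0.34) and CDC45L (0.16) were higher and chif (-0.24) lower among 10 helicase activation genes, and Cdc6 (0.37) was the 1 of 7 licensing genes called. Dp (-0.25) and E2f1 (-0.21) were lower among 8 G1/S regulators, and BubR1 (-0.47) was the 1 of 10 mitotic regulators called. The median was 0.13 over the members and -0.01 over all genes tested.

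Genes of other marker lists were called between the points as well, where 15.8% of all genes tested were lower and 34.3% changed. Genes listed as neuroblast markers were lower at the high point of fluctuating males in 4 of 5 cases, and those listed as imaginal disc markers in 3 of 5. The disc list summed to 110 to 201 CPM in adult males, against 200 to 303 CPM in larvae. The neuroblast list summed to 15.8 to 34.2 CPM, against 37.1 to 54.7 CPM. Neither list is thus particular to larvae, and changes in adults are not read as changes in those cells. The neuroblast list had median sums of 19.0 CPM after 12 cycles and 17.3 CPM after 6 cycles, against 32.9 and 29.1 CPM at the low point. None of 16 testis markers was called between the points, with group medians of 2006 to 2620 CPM in fluctuating males. Larval salivary glue genes summed to 6.68 to 19.6 CPM in constant males at the high point after 6 cycles, against at most 2.23 CPM in the other male groups. Their part in the results of the replication genes was not tested.

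Traces of female transcripts were measured in the male libraries. The ovarian transcript osk averaged 0.414 to 3.41 CPM over the 8 male groups, which is 0.0389% to 0.321% of its female mean of 1063 CPM. The same share of the female means of the replication genes would come to 0.737% to 23.5% of their levels in the male groups. At the high point osk averaged 1.46 and 3.14 CPM in fluctuating males after 12 and 6 cycles, against 1.58 and 0.414 CPM in constant males. At the low point it averaged 3.41 and 1.69 CPM in fluctuating males after 12 and 6 cycles, against 1.75 and 1.48 CPM in constant males. The ranges after 6 cycles overlapped there, at 1.33 to 2.14 CPM and 0.387 to 3.41 CPM. The highest value, 6.89 CPM, was in replicate 5 of the fluctuating low point after 12 cycles, which also held the highest RnrL of any male library, at 8.16 CPM. In constant males at the high point osk averaged 1.58 CPM after 12 cycles and 0.414 CPM after 6 cycles. The part of such traces in the changes of RnrS, RnrL and dup was not tested.

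The sexes differed in the regime effect for RnrS. Averaged over points and cycles, the effect in males minus that in females was -0.35 (SE 0.0672, adjusted p = 3.04e-04), the 1 member called of 10 (5.62% of genes were lower in this difference, 10.7% changed). With library totals in place of TMM, Mcm3 (-0.19, adjusted p = 0.0321) and dup (-0.18, adjusted p = 0.0307) were called too, while over all genes 559 were higher and 1325 lower, against 825 and 908 with TMM, and the median was -0.016, against 0.016.

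**Figure D4:**
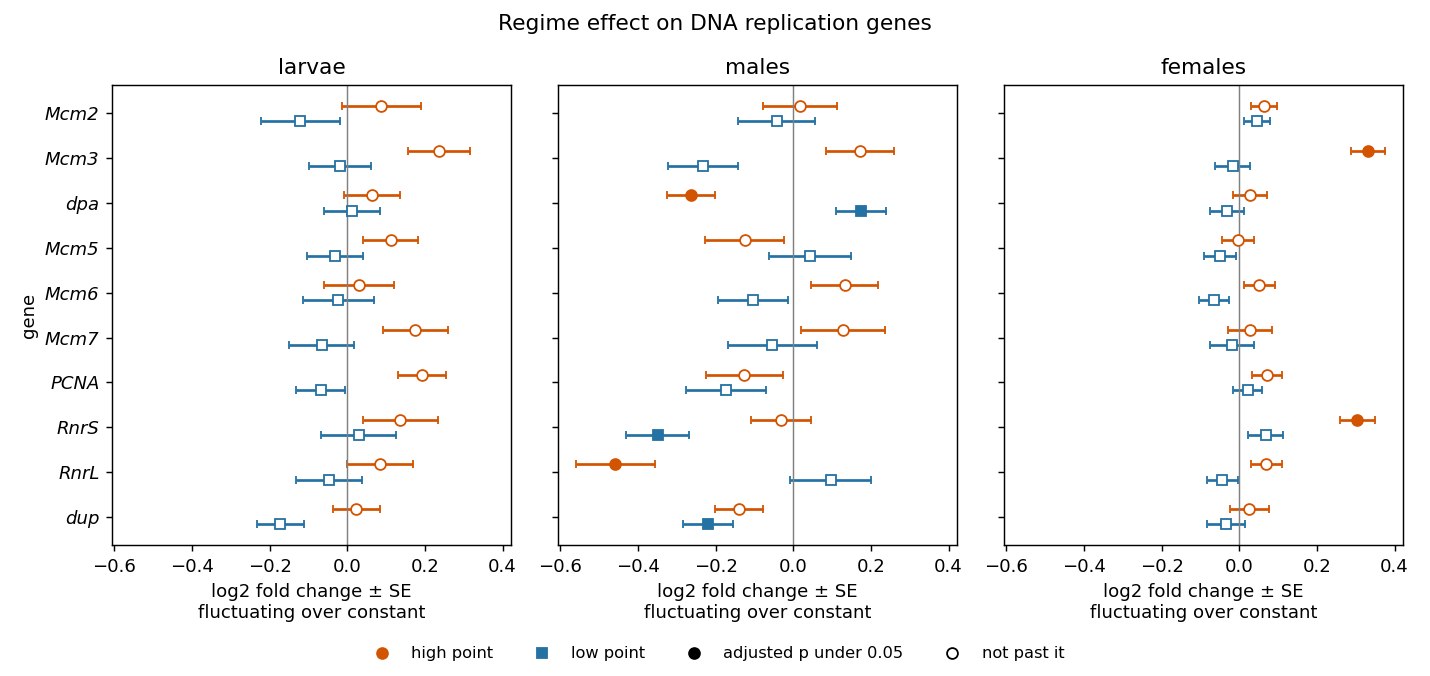
Log2 fold change of fluctuating over constant animals for the 10 genes in larvae, males and females, with SE as error bars; orange circles are the high point, blue squares the low point, and filled symbols have an adjusted p under 0.05. Filled symbols are Mcm3 and RnrS in females at the high point (0.33 and 0.30), dpa and RnrL in males at the high point (-0.26 and -0.46) and dpa, RnrS and dup in males at the low point (0.17, -0.35 and -0.22).

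In larvae none of the 10 genes passed the test between the regimes at the high point (4.37% of the 14634 genes tested changed). All 10 fold changes were positive there, with a median of 0.10, against 0.03 over all genes. PCNA was at 57.5, 58.3, 62.3 and 63.2 CPM in fluctuating larvae, against 48.7, 53.2, 50.005 and 48.4 CPM in constant larvae. Mcm3 was at 27.8, 27.3, 29.3 and 24.1 CPM in fluctuating larvae, against 19.7, 22.6, 23.4 and 21.4 CPM in constant larvae. All 4 fluctuating libraries were above all 4 constant ones for both genes. In CPM the groups did not overlap for 6 of the 10 genes and for 12.8% of all genes tested, whose median is itself shifted upward on that scale. On TMM-scaled counts they did not overlap for Mcm3 alone and for 9.94% of all genes. The log2 fold changes were 0.24 for Mcm3 (SE 0.0797, adjusted p = 0.102) and 0.19 for PCNA (SE 0.0629, adjusted p = 0.0923).

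How many larval genes are called depends on the scaling, since TMM factors ran from 0.856 to 1.18 in larvae. With library totals, 4 members were called at the high point, Mcm3 (0.32), PCNA (0.27), Mcm7 (0.25) and RnrS (0.21), while the median of all genes moved to 0.11. In that setting 958 genes were higher and 528 lower, against 308 higher and 331 lower with TMM. DESeq2 called 1 member, PCNA (0.17, adjusted p = 0.0465), and 2 members had an unadjusted p under 0.05 in edgeR's test. EdgeR and DESeq2 called 0 of the 10 at the low point (1.11% of genes changed), and 1 had an unadjusted p under 0.05. The difference between the points in the regime effect was also called for 0 by both tools (1.69% of genes changed), with 3 at an unadjusted p under 0.05.

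Between the points of the fluctuating regime, PCNA and dup were higher at the high point (3.25% of genes were higher and 4.97% changed). PCNA was at 57.5, 58.3, 62.3 and 63.2 CPM at the high point, against 46.9, 50.2, 57.3 and 56.4 CPM at the low point, and dup was at 19.6, 21.4, 21.9 and 19.7 CPM, against 17.1, 18.3, 20.1 and 19.7 CPM. PCNA did not overlap between the points in CPM, as for 10.4% of all genes, and dup did. The log2 fold changes were 0.31 for PCNA (SE 0.0629, adjusted p = 0.0110) and 0.25 for dup (SE 0.0608, adjusted p = 0.0299). With library totals neither was called (0.20, adjusted p = 0.120, for PCNA and 0.13, adjusted p = 0.335, for dup), and dup lost its call in 7 of the 16 fits without a library. With only the groups compared, adjusted p was 0.123 for PCNA and 0.229 for dup. The labels give no sex for larvae. The 3 dosage compensation markers summed to 48.0 to 305 CPM at the high point and 92.3 to 222.5 CPM at the low point. Adult males had 264 to 526 CPM and adult females 6.13 to 10.6 CPM. Their part in these results was not tested. Of the other lists, RfC4, a clamp loader subunit, was the 1 polymerase and fork gene called of 22 (0.44, adjusted p = 0.0149), and no licensing, helicase activation, nucleotide supply, G1/S or mitotic gene was. In constant larvae the points differed for 0 of the 10 genes by either tool (0.417% of genes changed), and 0 had an unadjusted p under 0.05. That share rests on single libraries: with one left out, 0 to 1322 genes were called, against 61, and the most without replicate 3 of the constant high point.

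**Figure D5:**
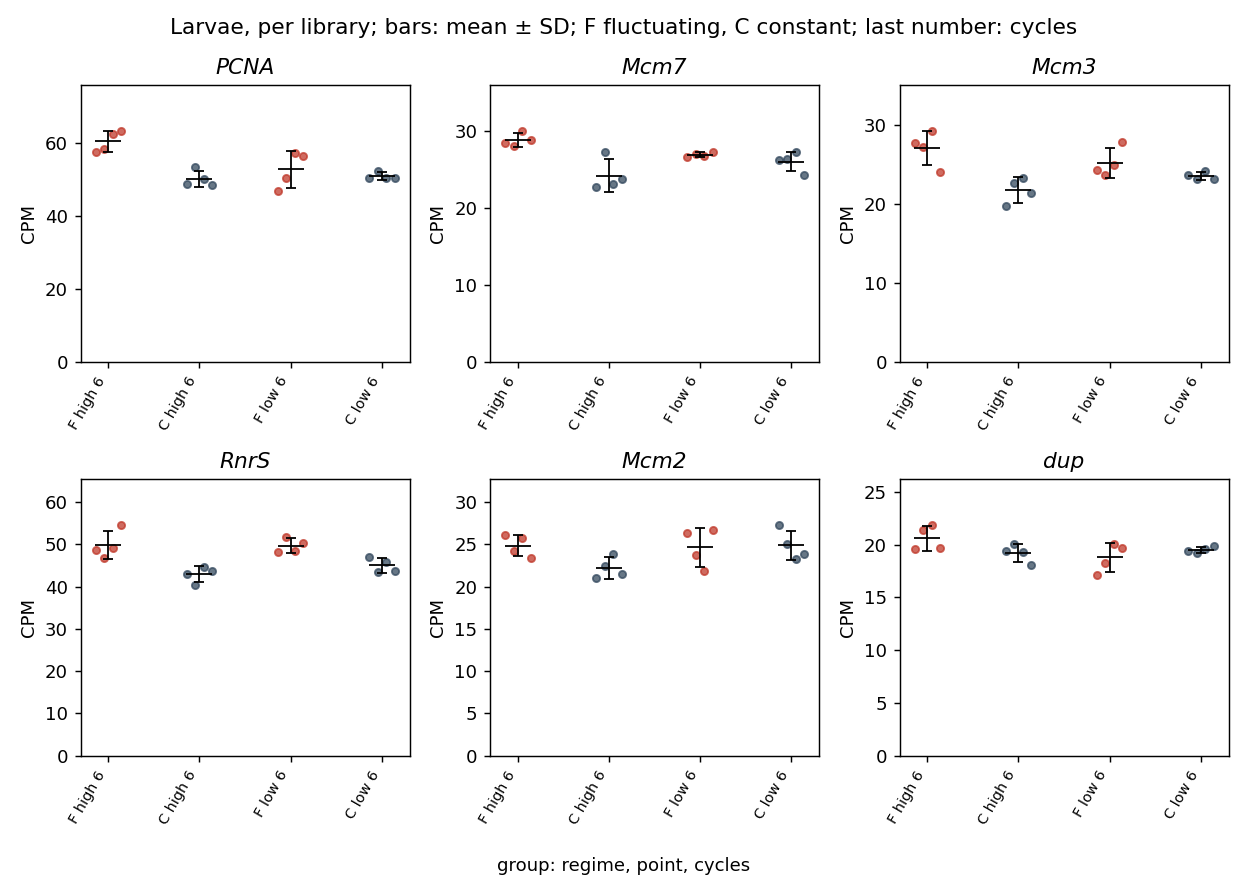
CPM of 6 of the genes in each larval library after 6 cycles, by regime (F fluctuating, C constant) and point; points are libraries, bars are the mean and SD of 4. PCNA, Mcm7, Mcm3 and RnrS are higher in all 4 fluctuating than in all 4 constant libraries of the high point in CPM, and none of these passed the test on TMM-scaled counts.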

How the data were processed

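Poly(A)-selected RNA from whole animals was sequenced. The authors deposited one table of estimated counts per gene and library (unit: expected counts, all whole numbers). Per the submitters' processing notes, FastQC, Trimmomatic, HISAT2, StringTie and the BDGP6 build were used; no versions or settings were stated in the sources used. Of 17697 gene identifiers, 17559 matched the BDGP6.54 annotation, which gave symbols, positions and exon lengths; Orc1, RPA2 and RPA3 were not analysed here.

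From the counts, CPM was computed on library totals, without TMM factors. Larvae, males, females, both adult sexes, and larvae with each sex in constant animals were fitted separately with edgeR 4.0.16 (R 4.3.3): a filter on low counts (filterByExpr, minimum count 10), TMM, 1 mean per group, quasi-likelihood tests, Benjamini-Hochberg adjustment over all genes of a fit, threshold 0.05. Standard errors are the fold change divided by the root of F. The replicate count is 4 per group, and precision is limited by those libraries and, in males, by low counts (169 counts of Mcm3 in the lowest male library). Alternatives were DESeq2 1.42.0, other scalings, no filter, counts divided by 4, a replicate block, only the groups compared, and each library left out. The script was tested on simulated data.

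The members and gene lists were chosen with earlier results of these data known. Named are all 10 members and, per list and comparison, at most the 3 called genes with the largest fold change. Some results for nucleotide supply genes are not reported here.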

Additional observations from a re-analysis of the deposited data

Results flagged for a closer look

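Of 190 sets of 4 replicate libraries, 13 held a single value far from the other 3, where chance alone gives about 1 in 20. In males these were Mcm2 in fluctuating males at the high point after 12 cycles (replicate 6, highest at 5.05 CPM), Mcm3 (replicate 8, lowest at 2.92 CPM) and RnrS (replicate 6, highest at 15.6 CPM) in the same group, RnrL in fluctuating males at the low point after 6 cycles (replicate 3, lowest at 4.56 CPM) and dpa in constant males at the high point after 6 cycles (replicate 4, highest at 14.2 CPM). In fluctuating females they were RnrL (replicate 6, lowest at 322 CPM) and dup (replicate 8, highest at 253 CPM) at the high point after 12 cycles, dpa at the high point after 6 cycles (replicate 4, highest at 245 CPM) and Mcm3 at the low point after 6 cycles (replicate 3, lowest at 115 CPM). In constant females they were Mcm2 at the low point after 12 cycles (replicate 5, lowest at 177 CPM) and, at the low point after 6 cycles, dpa (replicate 2, lowest at 205 CPM) and dup (replicate 3, highest at 252 CPM). In constant larvae at the low point, PCNA was highest in replicate 2, at 52.4 CPM.

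The regime effect differed between the high and the low point for Mcm3 (0.35) and RnrS (0.24) in females and for Mcm3 (0.40), dpa (-0.44), RnrS (0.32) and RnrL (-0.55) in males, all as log2 differences, high minus low. It differed between the sexes for RnrS (-0.35, males minus females). The effect of 12 against 6 cycles differed between the regimes in females for dpa (-0.28), Mcm6 (-0.21), Mcm7 (-0.26) and dup (-0.30), fluctuating minus constant.

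The male library left out of every comparison, replicate 2 of the constant low point after 6 cycles, held more of all 10 genes than any other male library. Its values were 40.7 CPM of Mcm2, 28.6 of Mcm3, 47.4 of dpa, 41.7 of Mcm5, 40.6 of Mcm6, 23.6 of Mcm7, 55.4 of PCNA, 53.4 of RnrS, 69.6 of RnrL and 43.7 of dup. These are 3.92-fold (dpa) to 12.9-fold (RnrL) above the male medians. It also held 334 CPM of osk, against 0.157 to 6.89 CPM in the other males.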

How the results depend on the processing

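Adding the left-out library to the males changed most. It reversed the low-point regime effects of dpa (-0.23), Mcm5 (-0.94) and RnrL (-0.97), the RnrL difference between points (0.52), RnrS between points in constant males (-0.25), and Mcm6 (-0.34), RnrS (-0.21) and RnrL (-0.72) for 12 against 6 cycles in constant males. The members called with it were 0 for regime at the high point (2 without it), 9 at the low point (3), 1 for their difference (4), 1 between points in fluctuating males (5), 0 in constant males (1), 0 for cycles in fluctuating (2) and 0 in constant males (3). In larvae, members called at the high point were 1 with DESeq2 and 4 with library totals, against 0. Between points in fluctuating larvae, they were 0 with library totals, 1 with a replicate block and 0 with only the groups compared, against 2. Library totals, an alternative chosen after seeing the data, gave 0 for cycles in fluctuating males and 3 for the difference between the sexes, against 2 and 1, and 7 for the difference of the cycle effects in females, against 4; at single times it gave 6 for regime at the high point after 6 cycles (3) and 2 at the low point (0). With only the groups compared, single times in females gave 0 for regime at the high point after 12 cycles (2), 0 and 3 at the low point after 12 and 6 cycles (2 and 0), and 1 for points in constant females after 6 cycles (3). At the low point after 12 cycles no filter and a replicate block gave 0, and after 6 cycles counts divided by 4 gave 1. With only the groups compared, points in constant males gave 0, against 1.

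With single libraries left out, members called ranged from 1 to 2 (points, fluctuating larvae), 2 to 4 (regime, high point, females), 0 to 1 (points, constant males), 1 to 2 (cycles, fluctuating males), 1 to 3 (cycles, constant males) and 1 to 2 (difference between the sexes). In females at single times they ranged from 2 to 8 (regime, high point, 6 cycles), 0 to 3 (regime, low point, 12 cycles), 0 to 1 (regime, low point, 6 cycles), 4 to 7 and 1 to 3 (cycles, constant, high and low point) and 1 to 4 (points, constant, 6 cycles). For single members, other settings left 2148 results on the same side of the threshold, ended 51 calls and added 31, reversals included.

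Counts over all genes moved most in larvae. For regime at the high point they were 639, against 1603 (DESeq2), 1486 (library totals), 1037 (replicate block) and 22 (only the groups compared). At the low point they were 162, against 524 (DESeq2) and 253 (only the groups compared); for the difference 247, against 1048 (DESeq2) and 399 (library totals). Between points they were 727 in fluctuating larvae, against 1475 (DESeq2) and 240 (only the groups compared), and 61 in constant larvae, against 1407 (DESeq2), 682 (library totals), 0 (no filter), 766 (replicate block) and 753 (only the groups compared). In females at single times, only the groups compared gave 722 for regime at the high point after 12 cycles (1612), 595 at the low point (1802), and for points in constant females 88 after 12 (604) and 1057 after 6 cycles (1992), with DESeq2 at 962 after 12 cycles. With single libraries left out, larvae gave 167 to 1162 for regime at the high point, 44 to 270 at the low point, 75 to 640 for the difference, 427 to 813 between points in fluctuating and 0 to 1322 in constant larvae. The cause was not tested.

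Replicate numbers were not used to pair libraries in the main fits. Deviations of same-numbered libraries from their group means correlated at -0.315 to 0.629 in larvae, -0.122 to 0.123 in males and -0.151 to 0.0811 in females, and 5 of 16, 8 of 31 and 1 of 32 libraries correlated best with their own number. How many would do so by chance was not computed. The median correlation of same-numbered pairs was -0.00478 in larvae, 0.0112 in males and -0.01 in females. For other pairs it was -0.0144, 0.00114 in females and -0.00126 in males, the first in larvae. No block was fitted for cycles, whose groups share no number.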
